A study of Oryza sativa with 4 samples.

Results

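On root-hair arrays, 6 regulators of the rice response to phosphate starvation were measured, namely the transcription factor PHR2, the SPX proteins SPX1, SPX2 and SPX3, the noncoding RNA IPS1 and PHO2. The genes were chosen with earlier results of these data known. Their probes were taken by gene ID, whatever the signal. PHR2 and SPX probe names start with Os07g0438800 (PHR2, chromosome 7), Os06g0603600 (SPX1, chromosome 6), Os02g0202200 (SPX2, chromosome 2) and Os10g0392600 (SPX3, chromosome 10). Names of the other probes start with Os03g0146800 (IPS1, chromosome 3) and Os05g0557700 (PHO2, chromosome 5). All 6 genes had a probe, and together they held 12 of the 42418 gene probes and 6 of the 29864 genes of the array. The RNA came from root hairs of rice seedlings grown on MSO medium and sampled at 3 days after germination (DAG). The hairs were rubbed off frozen seminal roots with a brush, so each array measured a bulk preparation, in which fewer hair cells and less RNA per cell cannot be told apart. Of the 4 one-colour Agilent arrays, 1 carried the cultivar label Lon-gin and 3 carried Don-gin, and the study described all 4 as biological replicates of one cultivar. The Lon-gin-labelled array and Don-gin replicate 3 lay on one slide (slide 2), and Don-gin replicates 1 and 2 lay on another (slide 1). No group of the series differed in phosphate supply, and no other tissue was measured.

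When phosphate runs short, rice plants activate genes for uptake and recycling through PHR2, a MYB-type factor that binds the promoters of starvation-induced genes. SPX proteins bind PHR2 in the presence of inositol pyrophosphates, which build up when phosphate is ample, and keep it from DNA. IPS1 is a noncoding RNA that pairs with miR399 without being cut and so holds it back, while miR399 directs the cleavage of the mRNA of PHO2, a ubiquitin-conjugating enzyme that promotes the breakdown of phosphate transporters. IPS1 and several SPX genes are themselves widely used as markers of phosphate starvation. Root hairs are a main surface through which roots take phosphate from the soil.

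Each level below is the log2 scanner signal of a probe, scaled so that the 75th percentile of every array sat at 11.15. Before scaling that percentile was 11.80 on the Lon-gin-labelled array and 11.49 on Don-gin replicate 3, against 10.59 and 10.73 on Don-gin replicates 1 and 2. The share of probes that the scanner software marked as well above background was 88.6% and 85.4% on slide 2, against 71.5% and 74.1% on slide 1. No probe was saturated, and the number of arrays limited the precision. The 1 root-hair marker used, CSLD1, a cellulose synthase-like gene needed for hair growth, was well above background on all 4 arrays, with levels from 14.03 to 14.90. Of 4 markers of other root cells, LSI1 and PHO1;2 were well above background on all 4 arrays, SHR1 on 2 and SCR1 on 1.

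On every one of the 4 arrays, 5 of the 6 genes were detected as well above background, SPX3 being the exception, and 4 were so with every one of their probes. Over all genes of the array the share was 67.7%. The 5 detected genes spread by a median of 1.43 log2 between their highest and lowest array, against a median of 0.85 over the 20214 genes detected on all 4 arrays. A spread above 4-fold was found for 1 of the 5 (IPS1), where the background was 12% of detected genes. Don-gin replicate 3 was the lowest array for 4 of the 5 (PHR2, SPX2, IPS1 and PHO2), where the background was 25.7%. For PHR2 this held for the average over probes, while its probes on AK060412 and AK103195 were lowest on Don-gin replicate 2. The shares in this paragraph are given without a test, because the arrays are the same for every gene.

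**Figure D1:**
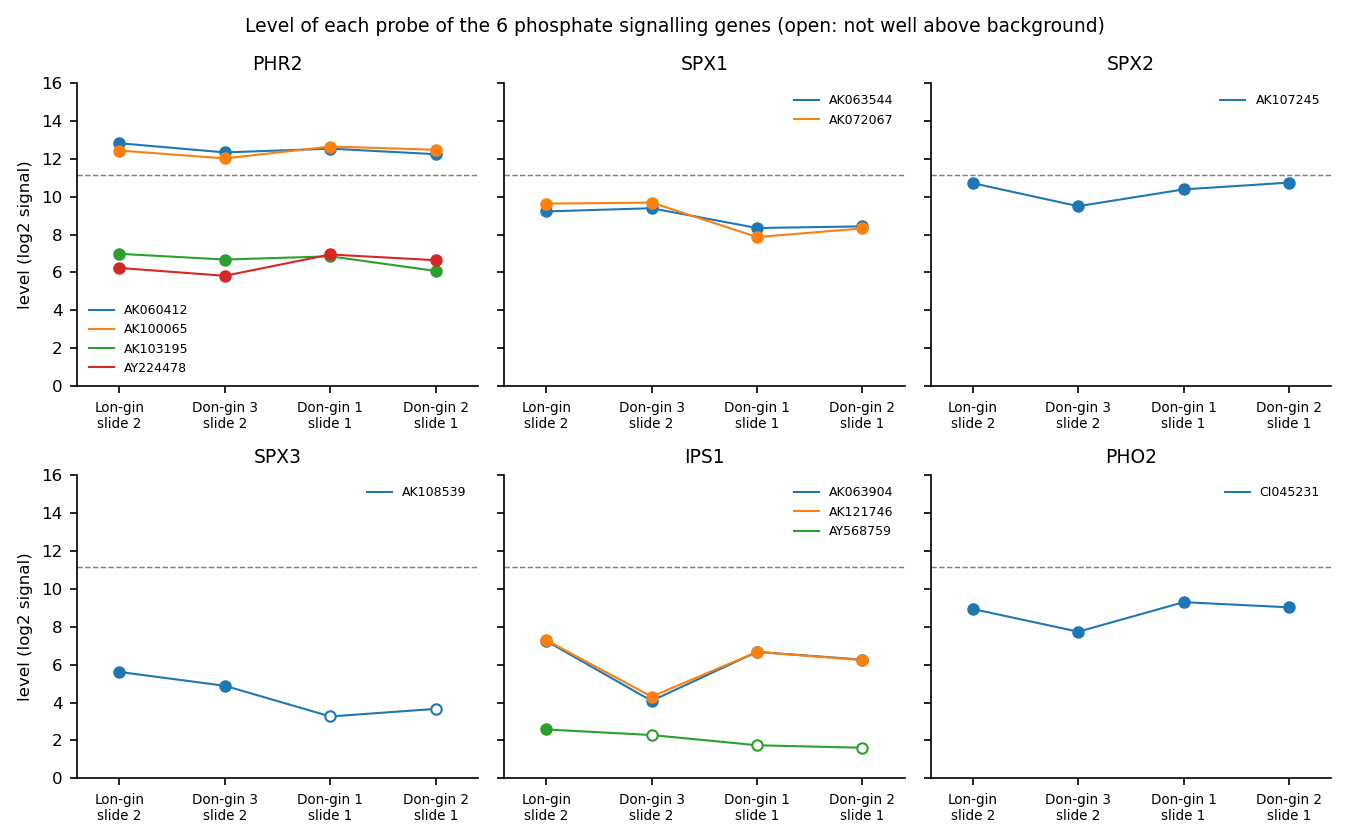
Level (log2 signal, probes of each gene separately) of the 12 probes of the 6 genes on the 4 arrays, slide 2 to the left of slide 1, with open points where the probe was not well above background and a dashed line at the 75th percentile of the arrays, 11.15. SPX1 sits higher on both slide 2 arrays, while SPX2, PHO2 and the IPS1 probes on AK063904 and AK121746 sit lowest on Don-gin replicate 3.

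PHR2, the central factor of the pathway, had 4 probes, and all of them were well above background on every array. The probe designed on AK060412 (coding sequence and 3'UTR) had a level of 12.82 on the Lon-gin-labelled array and 12.33 on Don-gin replicate 3, against 12.53 and 12.24 on Don-gin replicates 1 and 2. The probe on AK100065 (coding sequence and 3'UTR) had 12.43 and 12.02 on slide 2, in that order, against 12.65 and 12.47 on Don-gin replicates 1 and 2. With both probes the 4 arrays lay within 1.54-fold of each other. The probes on AK103195 (5'UTR and coding sequence) and AY224478 (coding sequence) gave much lower readings of the same gene, with averages over the 4 arrays of 6.65 ± 0.40 and 6.41 ± 0.49 (SD, n = 4 arrays). Averages of the other probes were 12.48 ± 0.26 for AK060412 and 12.39 ± 0.27 for AK100065 (SD, n = 4 arrays). Signals of different probes depend on the probe as well as on the RNA, so the levels themselves cannot be set against each other, and what can be compared is the pattern over arrays. There, Don-gin replicate 1 was the highest array with 2 of the probes and the Lon-gin-labelled array with the other 2, so that the probes gave no common order. Averaged over its probes, PHR2 spread by 0.53 log2, a spread wider than that of only 22.1% of detected genes.

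The SPX genes, which code for the repressors that bind PHR2, differed in their patterns. SPX1 had 2 probes, both in the coding sequence and 3'UTR. The probe on AK072067 had a level of 9.63 on the Lon-gin-labelled array and 9.69 on Don-gin replicate 3, against 7.87 and 8.32 on Don-gin replicates 1 and 2. The probe on AK063544 had 9.22 and 9.39 on slide 2, against 8.34 and 8.43 on slide 1. Both slide 2 arrays lay above both slide 1 arrays with either probe, and the arrays of one slide lay within 0.46 log2 of each other.

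SPX2 had 1 probe, on AK107245, with a level of 10.71 on the Lon-gin-labelled array and 9.50 on Don-gin replicate 3, against 10.38 and 10.74 on Don-gin replicates 1 and 2. Here the slides overlapped, since Don-gin replicate 3 was the lowest and the Lon-gin-labelled array lay between the slide 1 arrays. SPX3 had 1 probe, on AK108539, with a level of 5.62 on the Lon-gin-labelled array and 4.88 on Don-gin replicate 3, against 3.27 and 3.67 on Don-gin replicates 1 and 2. It was well above background on the slide 2 arrays and not on the slide 1 arrays, where the error given by the scanner software was 43.7% and 30.0% of the signal, against 10.34% and 10.98% on slide 2. Averaged over each slide, SPX3 was 3.44-fold higher on slide 2 in the scaled processed signal. That is a ratio to slide 1 readings not well above background, and not a lower bound. The difference between slides was 1.78 log2 on this scale, and only 0.30 in the authors' log2 values and 0.19 with normexp. With the same processed signal the difference was 0.98 with quantile normalization and 2.77 with no scaling. The ratio therefore holds for this scaling of the processed signal alone.

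IPS1, the RNA that holds back miR399, had the widest spread of the detected genes of the set. Its probe on AK063904 had a level of 7.25 on the Lon-gin-labelled array and 4.09 on Don-gin replicate 3, against 6.67 and 6.26 on Don-gin replicates 1 and 2. The probe on AK121746 had 7.30 and 4.31 on slide 2, against 6.67 and 6.24 on slide 1. With both probes the Lon-gin-labelled array was the highest of the 4 and Don-gin replicate 3 the lowest, although these share a slide, and the slide 1 arrays lay between them. The arrays spread 8.96-fold with AK063904 and 7.91-fold with AK121746. Don-gin replicate 3 was still well above background with both, at scanner errors of 13.0% and 12.6% of the signal. The third probe, on AY568759, had levels of 2.58 and 2.28 on slide 2, against 1.75 and 1.61 on slide 1, and was well above background only on the Lon-gin-labelled array. It did not show the low reading of Don-gin replicate 3 beside the slide 1 arrays, where its scanner errors were 99.6% and 99.7% of the signal. The design notes place all 3 IPS1 probes in untranslated sequence.

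PHO2, the ubiquitin-conjugating enzyme, had 1 probe, designed on the sequence tag CI045231, with a level of 8.94 on the Lon-gin-labelled array and 7.74 on Don-gin replicate 3, against 9.30 and 9.03 on Don-gin replicates 1 and 2. Both slide 2 arrays lay below both slide 1 arrays, the Lon-gin-labelled array only just. PHO2 spread by 1.56 log2, wider than 80.5% of detected genes, and SPX1 and SPX2 spread wider than 77.3% and 71.4%. IPS1, averaged over its 2 probes well above background on all 4 arrays, spread by 3.07 log2, wider than 96.7%. With the dim probe on AY568759 included it spread by 2.15 log2, wider than 90.0%. Ranges of the other genes average all of their probes, so only the 90.0% compares like with like.

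**Figure D2:**
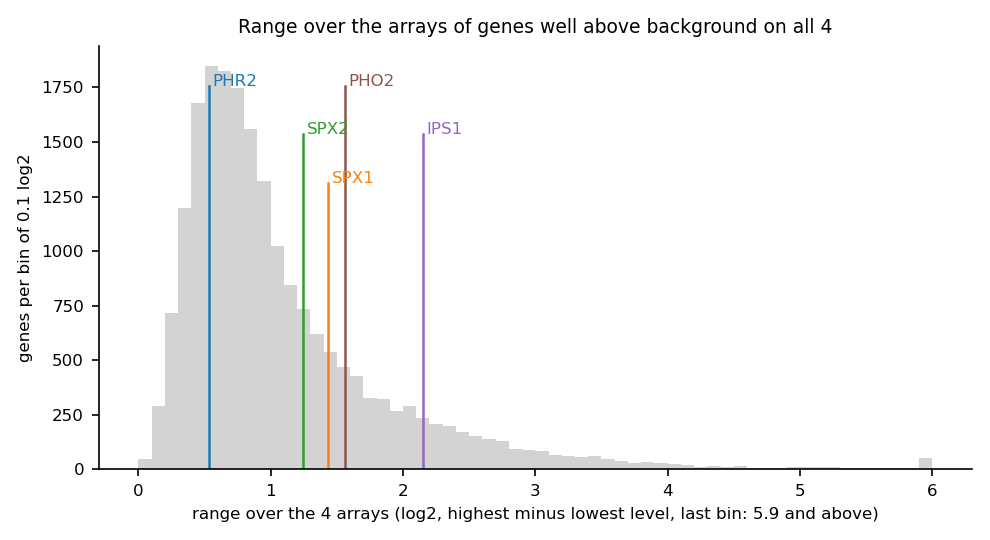
Number of genes by range over the 4 arrays (log2, highest minus lowest level, probes of a gene averaged) for the 20214 genes detected on all 4 arrays, with vertical lines at the 5 detected genes of the set. PHR2 lies left of the median of 0.85, and SPX2, SPX1, PHO2 and IPS1 lie right of it.

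The slide is the batch that the file headers give, and it was tested with limma over 35903 probes on 2 residual degrees of freedom. SPX1 was the gene of the set with the smallest adjusted p. Its probes were higher on slide 2 by 1.56 ± 0.29 (AK072067) and 0.92 ± 0.26 (AK063544) on the log2 scale (SE), with limma adjusted p = 0.0762 and 0.156. SPX3 was higher by 1.78 ± 0.37 with limma adjusted p = 0.0931. Its probe entered the fit only through slide 2, where it is high, so that p-value is no support for the difference. Of the 11 probes of the set tested, limma called 0 at an adjusted p under 0.05, where 3.15% of all probes were called. At an unadjusted p under 0.05 there were 3 of the 11, where the background was 20.7%. Those 3 probes, of SPX1 and SPX3, were also the ones whose slide 2 arrays both lay above the slide 1 arrays (background 31.3%), and another 3, of PHR2 and PHO2, lay below without overlap (background 25%). The members' shares were thus close to those of all probes. The median difference was -0.33 log2 over the 11 probes and 0.09 over all probes tested.

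The 3 probes higher on both slide 2 arrays shared that pattern with 31.3% of all probes tested, and with markers of xylem secondary wall. All 6 probes of CESA4, CESA7 and CESA9, the cellulose synthases of secondary walls, read higher on both slide 2 arrays than on both slide 1 arrays, and their summed level was 10.91 and 10.05 log2 on slide 2, against 8.63 and 9.20 on slide 1. CESA9 was well above background on slide 2 alone. The Lon-gin-labelled array read higher than Don-gin replicate 3 by 1.01 log2 for CESA4, 0.63 for CESA7 and 0.95 for CESA9. The same difference was 0.73 for SPX3, and -0.17 and -0.06 for the SPX1 probes on AK063544 and AK072067. The root-hair marker CSLD1 was also higher on both slide 2 arrays, with 14.44 and 14.90 on slide 2, against 14.22 and 14.03 on slide 1. The 4 markers of other root cells summed to 10.67 and 9.45 log2 on slide 2, against 9.39 and 10.81 on slide 1. LSI1, the brightest of the 4, weighs most in that sum, with 10.24 and 9.07 on slide 2, against 9.24 and 10.62 on slide 1. LSI1, PHO1;2 and SHR1 did not split by slide. SCR1 read higher on both slide 2 arrays but was well above background on 1 array only. The part of other cells in the SPX1 and SPX3 readings was not tested.

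**Figure D3:**
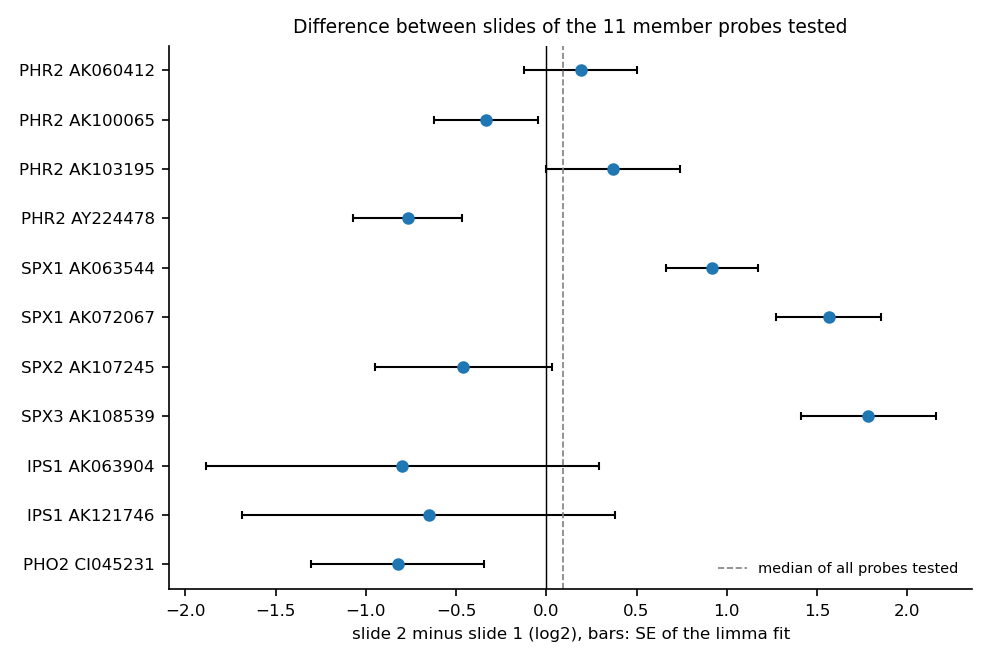
Difference of each of the 11 tested probes (log2, slide 2 minus slide 1, 2 arrays each), with bars for the SE of the limma fit and a dashed line at the median of all probes tested, 0.09. The SPX1 and SPX3 probes lie to the right, between 0.92 and 1.78, and both IPS1 probes have the widest errors. SPX3 was not well above background on slide 1.

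The Lon-gin label was compared with the 3 Don-gin arrays with limma over 37668 probes, again on 2 residual degrees of freedom and with the lone array assumed to vary like the others. Of the 12 probes of the set, 0 were called and 0 had an unadjusted p under 0.05, where 0.00265% of all probes, a single one, were called. The smallest limma adjusted p among the 12 was 0.662, for SPX3. IPS1 was higher on the Lon-gin-labelled array by 1.58 ± 1.10 (AK063904) and 1.56 ± 1.01 (AK121746) on the log2 scale (SE), with limma adjusted p = 0.841 and 0.826. PHR2 differed by between -0.24 and 0.45, SPX2 by 0.50 ± 0.62 and PHO2 by 0.25 ± 0.73 (SE). Over the 12 probes, which come from 6 genes only, the median difference was 0.50 log2, against 0.15 over all probes tested. In simulated data this fit found 2 of 100 probes changed by 2 log2 and 68 of 100 changed by 4, so a difference of the size seen for IPS1 would mostly go uncalled.

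Within slide 2, where the label and the slide are not mixed, there is 1 array on each side, and the difference has no replicate check. The Lon-gin-labelled array read 8.96-fold and 7.91-fold higher than Don-gin replicate 3 with the IPS1 probes on AK063904 and AK121746. Of 35761 probes well above background on both arrays, 3.73% were over 4-fold higher on the Lon-gin-labelled array and 0.931% over 4-fold lower. SPX2 read 2.32-fold and PHO2 2.30-fold higher, PHR2 between 1.23-fold and 1.40-fold higher with its 4 probes, and SPX1 0.96-fold and 0.89-fold as high. Within slide 1, Don-gin replicate 2 differed from Don-gin replicate 1 by -0.41 and -0.43 log2 with the same IPS1 probes. Among probes detected on each array of a pair, the median absolute difference was 0.34 log2 within either slide, while the SD of the differences was 0.91 within slide 2 and 0.61 within slide 1. With the slide as a block, limma gave IPS1 adjusted p = 0.00877 and 0.0119, where 5.12% of all probes were called. That fit has 1 residual degree of freedom, sets the Lon-gin-labelled array against Don-gin replicate 3 alone and takes its spread from the slide 1 pair. Without the Lon-gin-labelled array, Don-gin replicate 3 was lower in IPS1 than the slide 1 arrays by -2.38 and -2.14 log2, with limma adjusted p = 0.0167 and 0.0262 for AK063904 and AK121746, where 7.95% of all probes were called. Here too 1 array stands alone, on 1 residual degree of freedom, and its own reading and the slide cannot be told apart. The IPS1 difference within slide 2 was 1.74 and 1.61 log2 in the authors' own log2 values, in place of 3.16 and 2.98. It was 2.86 and 2.69 with quantile normalization, and 0.81 and 0.77 with normexp.

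**Figure D4:**
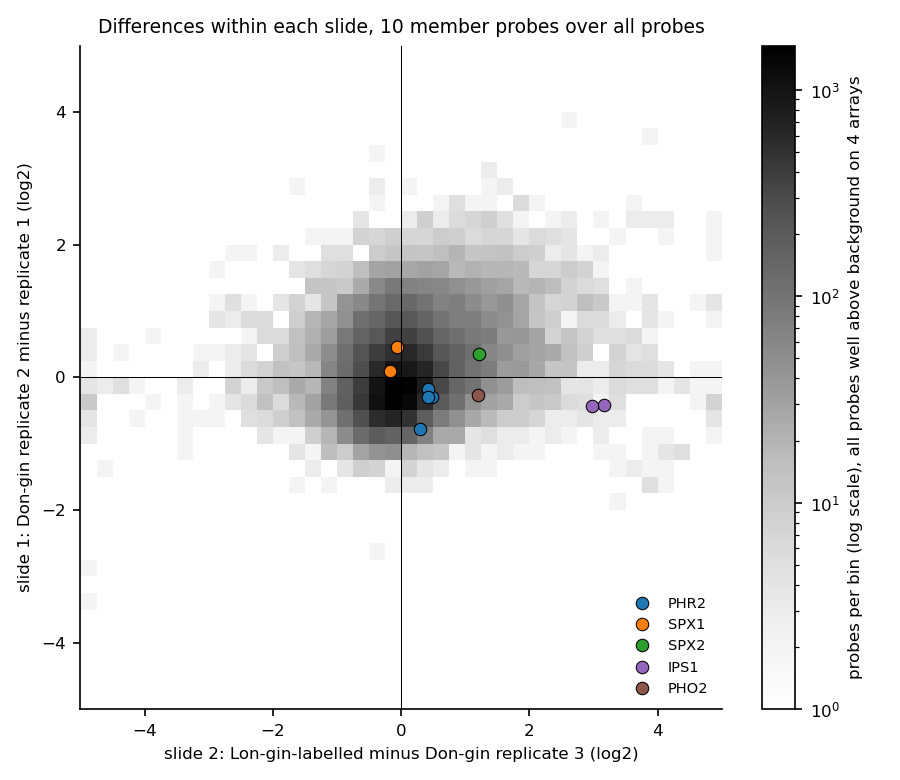
Differences within each slide (log2) of the 10 probes of the set that were well above background on all 4 arrays, in colour, over bins of all 29680 such probes, in grey on a log scale. Both IPS1 probes lie at the right edge of the bulk of probes, with slide 2 differences of 3.16 and 2.98 and slide 1 differences of -0.41 and -0.43.

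Other genes of the pathway were taken from a list by gene ID, and 15 of 25 were used, those whose name the RefSeq annotation gives on the same chromosome. They had 37 probes, and 11 of the 15 genes were detected in this way on every array. In the slide comparison limma called 1 of 30 probes tested, that of SPX5 (background 3.15%), and 9 had an unadjusted p under 0.05 (background 20.7%). Without overlap 12 were higher (background 31.3%) and 5 lower (background 25%) on slide 2, and the median difference was 0.26 log2 against 0.09 over all probes. In the comparison by label limma called 0 of 30, with 0 at an unadjusted p under 0.05 and a smallest adjusted p of 0.632.

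Among the SPX genes outside the set, SPX5 and SPX6 read higher on slide 2 and SPX4 was nearly level over the arrays. SPX5 had 6.49 and 6.63 on slide 2, against 2.42 and 1.81 on slide 1, where it was not well above background. Its slide 2 level was 11.9-fold above a slide 1 floor, and the slide difference had limma adjusted p = 0.0245. The floor was, on each slide 1 array, the higher of its signal and the lowest signal marked well above background there. This ratio is not a lower bound. The CESA7 probe on AK072259 read 4.46 on Don-gin replicate 1 and was still not well above background there. The SPX5 probe entered the fit only through slide 2, where it is high, so the p-value is no support for the difference. The call was lost with quantile normalization, with normexp and without either Don-gin replicate 1 or Don-gin replicate 2. SPX6 had levels of 10.51 and 11.13 on slide 2, against 8.27 and 9.47 on slide 1, without overlap but with limma adjusted p = 0.141. The probes of SPX4, an SPX protein that also holds PHR2 in the cytoplasm, spread by 0.44 and 0.67 log2 over the 4 arrays, with no split by slide.

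Of the relatives of PHR2, PHR1 varied by less than the median detected gene and PHR3 by more, with ranges of 0.69 and 1.21 log2. PHR1 had levels of 11.65 and 11.40 on slide 2, against 12.10 and 11.79 on slide 1, with its probe on AK109510, and its other probe gave the same order of arrays. PHR3 had 12.84 and 12.11 on slide 2, against 12.98 and 13.32 on slide 1. Both genes read lower on both slide 2 arrays, with limma adjusted p between 0.366 and 0.441. SIZ1, a SUMO ligase, had 11.50 and 11.52 on slide 2, against 12.22 and 11.88 on slide 1, with limma adjusted p = 0.342. Of the PHO1 genes, which export phosphate towards the xylem, PHO1;2 had 8.60 and 7.24 on slide 2, against 5.82 and 7.63 on slide 1, and PHO1;1 and PHO1;3 were not well above background on any array.

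**Figure D5:**
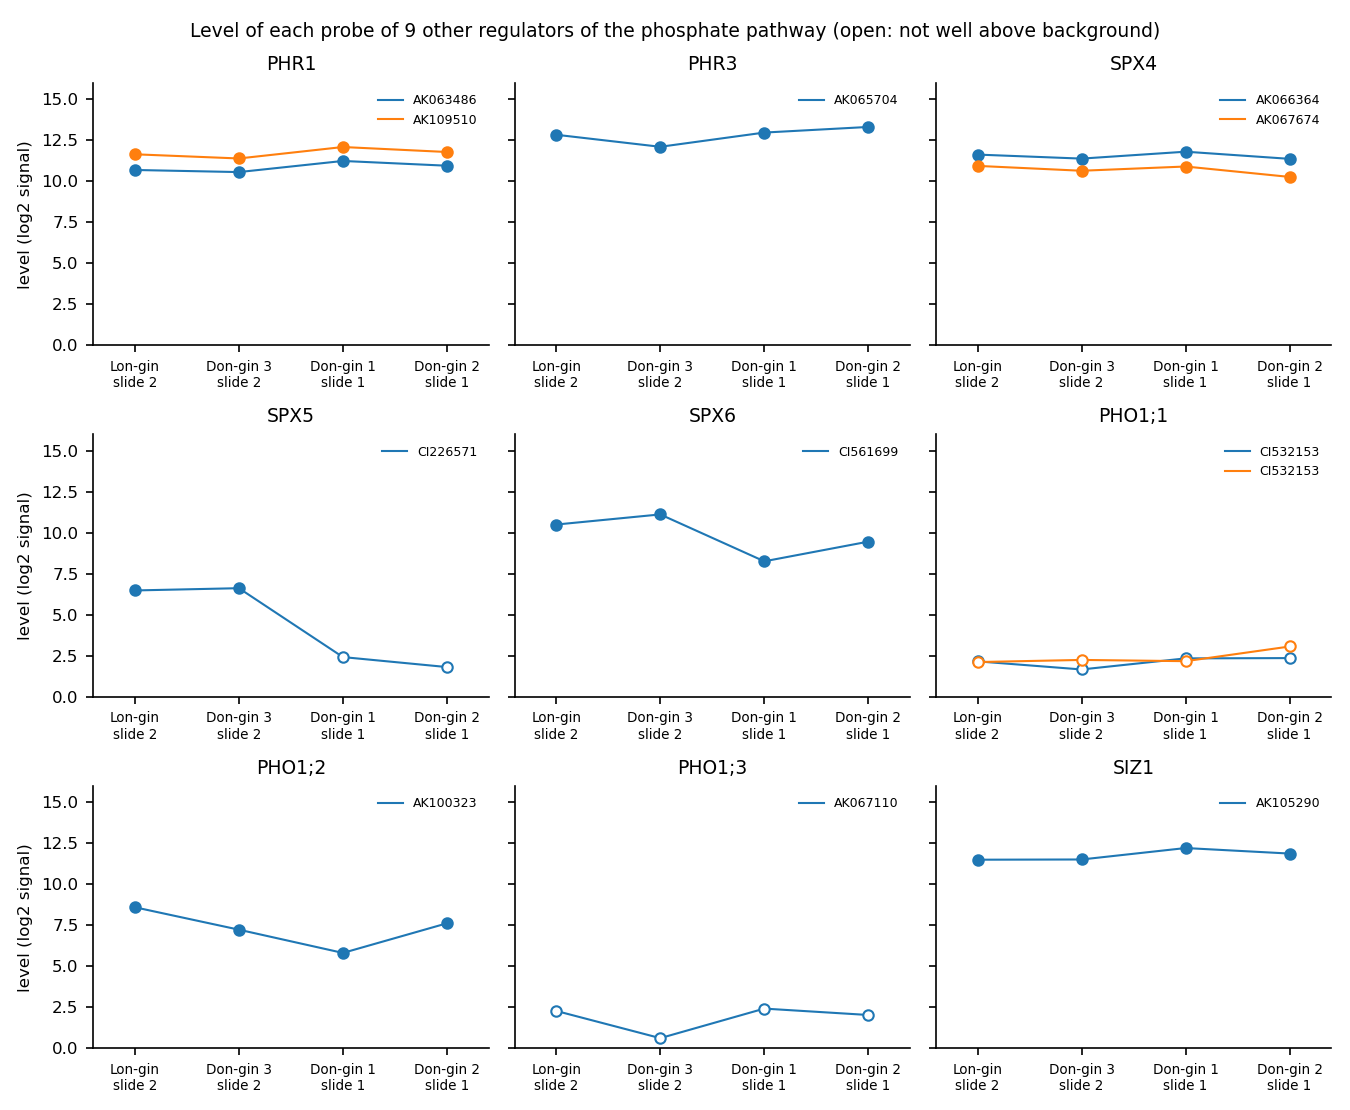
Level (log2 signal) of each probe of 9 other regulators on the 4 arrays, slide 2 to the left of slide 1, with open points where the probe was not well above background. SPX5 and SPX6 sit higher on slide 2, PHR1, PHR3, SPX4 and SIZ1 vary by at most 1.21 log2, and PHO1;1 and PHO1;3 lie near background.

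The phosphate transporters downstream of PHR2 and PHO2 covered a wide span of patterns. PT8, averaged over 2 probes, had 10.94 and 10.45 on slide 2, against 8.41 and 9.29 on slide 1, a range of 2.53 log2, and PT1 and PT4 had ranges of 2.01 and 1.85. PT2 and PT6 had the smallest ranges, 0.71 and 0.90 log2. PT11, which serves uptake from mycorrhizal fungi, was not well above background on any array.

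IPS1, averaged over its 3 probes, was also set against all other detected genes by the shape of its profile over the 4 arrays. The measure was the root mean square difference between profiles centred on their own means. The nearest of 20213 genes were Os04g0668800 at 0.04 log2, Os08g0215300 at 0.05 and Os08g0269600 at 0.07, none of which is paired with a gene name in the sources used here. Each of them was likewise highest on the Lon-gin-labelled array and lowest on Don-gin replicate 3. Of the set, SPX2 stood at 0.42 and PHO2 at 0.45 from IPS1, PHR2 at 0.62 and SPX1 at 1.11. The likeness rests on 4 arrays and is a description with no test. The average includes the probe on AY568759, not well above background on 3 arrays, which narrows the IPS1 range from 3.07 to 2.15 log2. The nearest genes and the distances hold for that average alone and were not computed without this probe.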

How the data were processed

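Root-hair RNA of 4 rice samples at 3 DAG was hybridised to Agilent 4x44K arrays with 1 dye. The authors read the scans with Feature Extraction (11.5.1.1 per the file headers, 9.1 in the submitters' processing notes), and its spot intensity values were deposited, on a probe design of build IRGSP5. A table of log2 values was deposited as well, and for how it was normalized the study refers to earlier work that was not used here. On each array it ranks the probes as the median spot signal does. Its median was 8.39 on both slide 2 arrays, against 7.59 on both slide 1 arrays, as if each slide had been normalized on its own. All per-sample columns of that table were used (0 left out). The scanner flags for well above background, positive and significant, saturated and outlier spots, and the error of the processed signal, were used as deposited.

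Control spots were left out, as were 59 placeholder probes of 42477, and 126 outlier spot values where the probe had another spot. Log2 processed signal was averaged per probe, the 75th percentile of each array was subtracted and their mean over the 4 arrays, 11.15, restored. Probes of a gene were averaged, and a gene was detected if 1 of its probes was. The slide fit took probes that passed the background call on both arrays of either slide, and the fit by label those that passed on the lone array or all 3 others. They were tested with limma 3.58.1 in R 4.3.3, with Benjamini-Hochberg adjustment over all of them and a threshold of 0.05. The labels do not say that samples came from separate cultures, so p-values measure the spread between these samples. Tested on simulated data, the slide fit recovered 21 of 100 probes changed by 2 log2, 91 of 100 changed by 4 and all 100 changed by 8, and made 17 false calls among its 35903 probes. The fit by label recovered 2, 68 and 99 of 100 and made 10 false calls among its 37668 probes. Alternatives were quantile normalization, normexp with an offset of 50 on the median signal (no column of mean signal was used), the deposited log2 values, no scaling, outlier spots kept, no filter on dim probes, all probes of a gene required, positive and significant signal as detection, slide or label as a term, and each array left out.

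The 6 genes and all gene lists were chosen with earlier results of these data known. Genes named in the text were the 6 with every probe, all listed pathway regulators with a probe and a name, the other pathway genes with the 3 widest and 3 narrowest ranges or an adjusted p under 0.05, and the 3 genes nearest to the widest-ranging detected gene. Pairings of ID and name were checked only by symbol and chromosome in RefSeq, where IPS1, PHO2, 10 of 25 pathway genes and the markers RHL1 and BOR1 had no such match. The markers EXPA17 and RHL1 had no probe under the listed ID. Sequences were not used here.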

Additional observations from a re-analysis of the deposited data

How the results depend on the processing

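The number of the 6 genes with arrays over 4-fold apart was 2 (IPS1 and SPX3). It became 0 with quantile normalization, normexp and the authors' log2 values, and 0 to 2 with 1 array left out. These counts average the probes of a gene, for IPS1 with the dim probe on AY568759. With quantile normalization the IPS1 probes on AK063904 and AK121746 were still 2.86 and 2.69 log2 apart within slide 2. Detection (5 of 6) was 4 when all probes were required and 6 by positive and significant signal. Member probes called by label (0) were 2 with the slide as a block, both of IPS1, and 0 to 1 with 1 array left out (SPX3, without Don-gin replicate 3). Pathway probes called by label (0) were 0 to 4 with 1 array left out, the 4 without Don-gin replicate 3. Member probes called by slide (0) were 2 with the authors' values (SPX1), 3 with no scaling (SPX1 and SPX3), 2 with the cultivar label as a term (IPS1) and 0 to 2 with 1 array left out. Pathway probes called by slide (1) were 0 with quantile normalization and 0 with normexp, 5 with the authors' values, 10 with no scaling, 4 with no filter on dim probes, 6 with the label as a term and 0 to 6 with 1 array left out. SPX5 was lost without Don-gin replicate 1 and without Don-gin replicate 2. Over all probes the slide calls (1130) were 178 with quantile normalization, 153 with normexp, 3135 with the authors' values, 9530 with no scaling, 3101 with no filter, 2853 with the label as a term and 0 to 3497 with 1 array left out. The calls by label (1) were 64, 5, 0, 0, 0 and, with the slide as a block, 1927, in the same order, and 0 to 4620 with 1 array left out. With no filter, 1533 slide calls were higher and 1568 lower, against 1089 and 41. No scaling moved the median of all probes to 1.08 log2 between slides and to 1.02 by label, and the authors' values to 0.48 and 0.28.

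The IPS1 slide difference of AK063904 and AK121746 turned to 0.19 and 0.33 with no scaling and to 0.78 and 0.84 without Don-gin replicate 3, and was -2.38 and -2.14 without the Lon-gin-labelled array. The difference by label of AY568759 turned to -0.0062 with normexp and -0.37 with the authors' values, and its difference within slide 2 to -0.19 with quantile normalization, -0.028 with normexp and -0.034 with the authors' values. The IPS1 difference within slide 2, an alternative chosen after seeing the data, was 0.81 and 0.77 with normexp. That setting combines the median signal, quantile normalization and an offset, which narrows differences of dim probes. The share of each step in the smaller difference was not tested. For SPX3 the slide difference was 0.98 with quantile normalization, 2.77 with no scaling, 0.30 with the authors' values and 0.19 with normexp. Causes of these shifts were not tested. No paired analysis was possible because there is 1 Lon-gin-labelled array and its title carries no replicate number. Signals near background limit SPX3 on slide 1 and AY568759 on 3 arrays.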

Other observations

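The probes named for miR399, the microRNA that links IPS1 and PHO2, were looked up after the data had been seen. There were 33 probes for 11 miR399 genes, of which 7 passed the scanner's call for signal well above background on every array and 8 on none. Of all probes, 29680 were so on every array, where the array holds 42418 gene probes. By array, 24 miR399 probes were so on the Lon-gin-labelled array and 25 on Don-gin replicate 3, against 9 and 8 on Don-gin replicates 1 and 2. Over all probes the shares were 88.6% and 85.4% on slide 2, against 71.5% and 74.1% on slide 1, so slide 2 passed more probes in general. The probe for mature miR399h had levels of 8.72 and 9.26 log2 on slide 2, against 5.02 and 5.07 on slide 1. The mature probes of miR399e, miR399f and miR399g read between 8.58 and 9.42 on slide 2, against 5.03 to 5.55 on slide 1. The other mature probes differed less between slides, at 2.06 log2 for miR399d, 1.27 for miR399i, 1.14 for miR399k, 0.62 for miR399c, 0.16 for miR399a, -0.20 for miR399j and -0.44 for miR399b, which was well above background on all 4 arrays. Members of this family have similar mature sequences, and which RNA each probe reads was not tested. The slide fit also took in miR399 probes well above background on slide 2 alone, whose calls are no support for a difference. In the slide comparison limma called 6 of the 24 miR399 probes tested, where 3.15% of all probes were called, and the count was 0 with quantile normalization, 0 with normexp, 4 with the authors' values, 18 with no scaling, 10 of 33 with no filter, 11 with the label as a term and 0 to 11 with 1 array left out. It was 0 without Don-gin replicate 1 and 0 without Don-gin replicate 2.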
